A study of Mus musculus with 4 samples.

Results

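The enzymes that lead from UDP-glucose to ascorbate were followed in mouse liver through 5 genes, Ugp2, Ugdh, Akr1a1, Rgn and Gulo. The members were all probes, other than control probes, whose RefSeq accession maps to one of these symbols. This gave 7 probes of 41174, with 2 each for Ugp2 and Gulo, and 5 of the 17305 genes that RefSeq accessions on the array matched to a symbol. The livers came from 3-month-old male C57Bl/6 mice that carried a Wrn mutation, for which the labels name no allele. Wrn encodes a DNA helicase, and its loss in humans causes Werner syndrome, a disorder of early ageing. One group of 4 had drunk water with 0.4% vitamin C from weaning onwards, and the other 4 were Wrn mutants without treatment, so both groups share the mutation and no liver with an intact Wrn gene entered the comparison. Each of 4 microarrays held RNA of 1 treated liver in the dye Cy3 and of 1 untreated liver in Cy5, and none of the 4 had the dyes swapped. A dye effect on a probe and an effect of vitamin C can therefore not be told apart, and in whole liver neither can fewer hepatocytes and less RNA per hepatocyte.

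Most mammals make vitamin C in the liver by the glucuronate route. UDP-glucose is oxidised to UDP-glucuronate, glucuronate is set free and reduced to gulonate, gulonate is closed to a lactone, and the lactone is oxidised to ascorbate. Humans have lost the last enzyme, GULO, and need vitamin C in food, whereas mice keep it. Mice given vitamin C in water therefore have a supply from outside on top of their own synthesis.

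No enzyme of the route passed the test: 0 of the 7 probes had an adjusted p under 0.05 (limma, Benjamini-Hochberg over 39328 probes), as did 0 of all probes tested (0%; smallest adjusted p = 0.139). At an unadjusted p under 0.05 there were 10698 probes in all (27.2%), and 1 member probe, the brighter one of Gulo. That probe, for the enzyme of the last step, lay at a fold of 0.819 in treated livers and below 0 on all 4 arrays, but the second Gulo probe had a mean near 0. Rgn, of the step before, was low on 2 arrays only. The genes of the first steps, Ugp2 and Ugdh, had means slightly above 0, and Akr1a1, in the middle of the route, averaged 0.019 with a wide spread. Without replicate 2, 9688 probes (24.6%) passed, and no member probe was among them. Each ratio is the log2 of the treated over the untreated liver of a pair, from normalized intensities, with its SD over the 4 arrays. Its direction follows the dyes that the labels name and is opposite to that of the deposited log2 table, which runs untreated over treated.

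Median spot signals of an array ran from 379.5 to 530 in Cy3 and from 813 to 962 in Cy5. The member probes were among the brightest on the arrays, so background did not limit them. Even the dimmest was brighter than 92.7% of the probes tested, and Rgn was brighter than 99.8%. Median signals of the 7 spots ran from 5174 to 156289 in Cy3 and from 12394 to 340582 in Cy5, against local backgrounds of 38 to 74. All 7 probes were well above background in both channels on every array, none was saturated, and no spot of them was left out. Repeat spots of 33 probes in this range of intensity differed by an SD of 0.047 to 0.056 within an array, while the ratios of member probes differed between arrays by SDs of 0.13 to 0.32. The first covers spot noise alone, the second also differences between livers and arrays. Over all probes tested, the ratios of replicate 2 correlated with those of replicates 1, 3 and 4 at 0.050, -0.11 and -0.14, whereas these 3 correlated with each other at 0.57 to 0.78 (across probes, which are not independent).

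**Figure D1:**
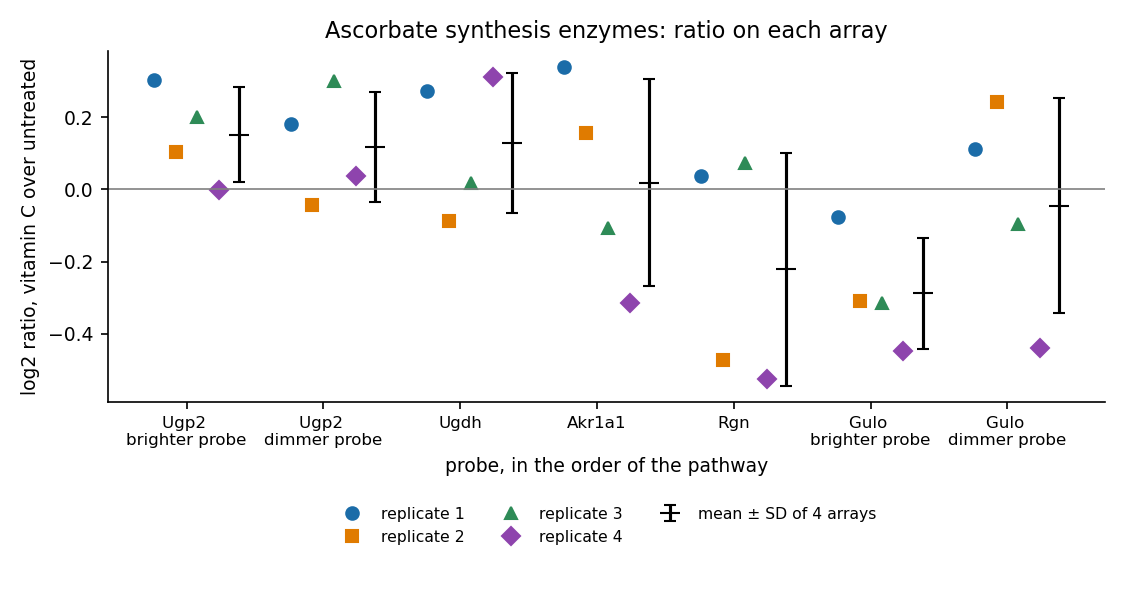
The log2 ratio of vitamin C over untreated (vertical axis) is drawn for each probe on each of 4 arrays, coloured by replicate, with the mean and SD beside it; probes stand in the order of the pathway. The brighter Gulo probe is the one with all 4 points below 0, from -0.45 to -0.078, while the dimmer Gulo probe and Akr1a1 span from about -0.44 and -0.31 up to 0.24 and 0.34.

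Gulo encodes L-gulonolactone oxidase, which makes ascorbate in the membrane of the endoplasmic reticulum. Its brighter probe had log2 ratios of -0.078, -0.31, -0.32 and -0.45 on replicates 1 to 4. All were below 0, as were those of 15.5% of all probes tested, and replicate 1 lay closest to 0. The mean was -0.29 ± 0.15 (SD, n = 4), a fold of 0.819 with a limma 95% interval of 0.727 to 0.923 before any adjustment; the adjusted p was 0.140 (limma). Of all probes, 1860 (4.73%) had a p at least as small.

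After the channels were put on a common scale, the brighter Gulo probe had log2 levels of 16.06, 15.98, 16.03 and 15.84 in the treated livers of replicates 1 to 4. In the untreated livers the levels were 16.14, 16.29, 16.35 and 16.29. Untreated livers lay above treated ones without overlap, by a narrow margin: the highest treated liver was at 16.06 and the lowest untreated one at 16.14, both of replicate 1. Such groups without overlap were found for 7.08% of all probes. The 100 probes nearest in intensity had a median of -0.00045 and 14 of them were below 0 on all 4 arrays; loess itself centres ratios near 0 over most of the range of intensity.

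The second Gulo probe, which carries the same accession and is dimmer, had ratios of 0.11, 0.24, -0.097 and -0.44 on replicates 1 to 4. Replicates 1 and 2 were above 0 and replicates 3 and 4 below, and the mean was -0.046 ± 0.30 (SD, n = 4), with an adjusted p of 0.813 (limma). Its levels in untreated livers kept within 0.11 log2 units of each other, while those in treated livers spread over 0.57, so the groups overlapped. On replicate 4 the probes of Gulo differed by 0.0071, and on replicate 2 by 0.55. The brighter probe was lower by 0.24 on average, and the probes had the same sign on 2 of 4 arrays. Gaps of this size were common. Among 271 genes with a pair of probes at least as bright as the dimmest member probe, the median gap of means was 0.12 and 58 genes (21.4%) had one of 0.24 or more. Which transcripts or stretches the probes target was not examined, as the probe sequences were not used here.

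The value of Gulo also moved with the way in which signals were processed. With Agilent's own processed signals, the brighter probe had 0.18, -0.14, -0.15 and -0.36, so 3 of 4 arrays were below 0, with a mean of -0.12 (adjusted p = 0.513, limma), and the dimmer probe had a mean of -0.15. Agilent's error model gave each of these single ratios an error of 0.20 to 0.21. Without loess, a curve that removes the dependence of the ratio on intensity, the mean of the brighter probe was -0.49 (adjusted p = 0.0194, limma), in a setting where 30.2% of all probes passed. It also passed with array weights (adjusted p = 0.0192, limma; 34.3% of all probes passed) and with channels fitted separately and the array as a random replicate block (adjusted p = 0.0451, limma; 3.31% passed).

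**Figure D2:**
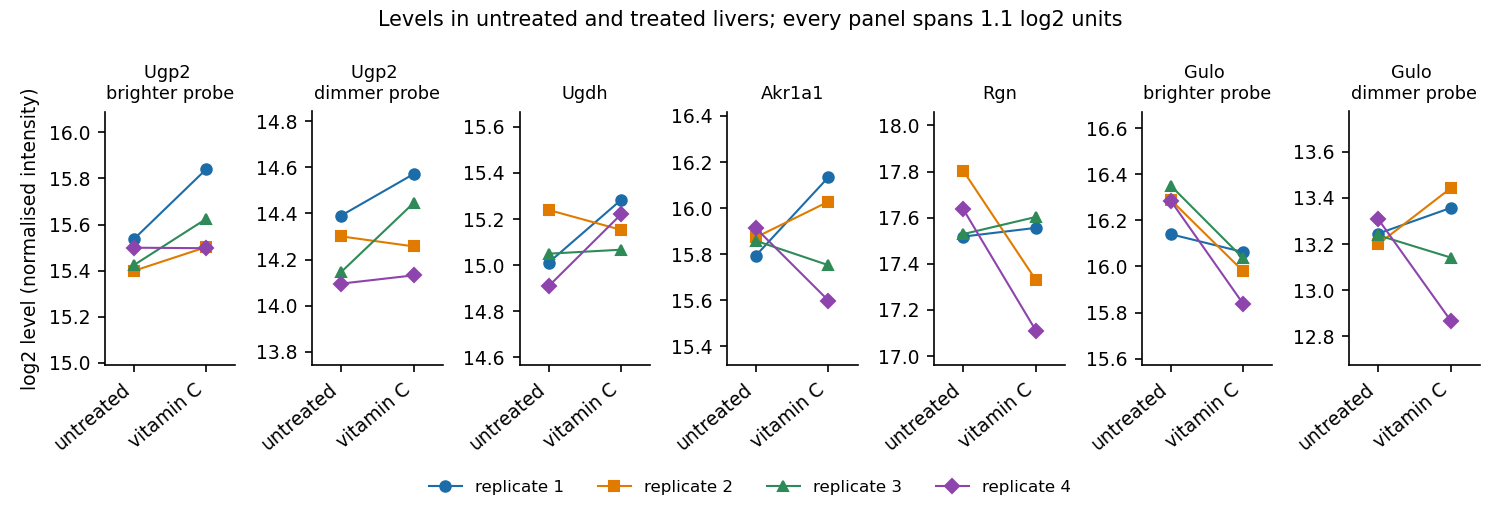
Normalised log2 levels (vertical axes) are drawn for the untreated and the treated liver of each pair, joined by a line and coloured by replicate, with 1 panel per probe. For the brighter Gulo probe the 4 treated livers (15.84 to 16.06) lie under the 4 untreated ones (16.14 to 16.35); in each of the other 6 panels the groups overlap.

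Rgn encodes regucalcin, also known as SMP30, a calcium-binding protein whose lactonase activity closes the ring of gulonate. Mice without it depend on vitamin C from food. Its ratios were 0.038, -0.47, 0.074 and -0.53 on replicates 1 to 4. Replicates 2 and 4 were thus low, while replicates 1 and 3 lay just above 0. The mean was -0.22 ± 0.32 (SD, n = 4), with a limma 95% interval of -0.53 to 0.082 and an adjusted p of 0.280 (limma).

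The levels of Rgn in treated livers were 17.56, 17.33, 17.60 and 17.11 on replicates 1 to 4, and in untreated livers 17.52, 17.80, 17.53 and 17.64. The treated livers of replicates 2 and 4 were the lowest of the 8, and the untreated ones of the same replicates the highest. Rgn stood where the ratios of most probes were low. The 100 probes nearest in intensity had a median of -0.30, and 60 of them were below 0 on all 4 arrays. After a running median over intensity had been taken off, the mean of Rgn was 0.100 (adjusted p = 0.616, limma), and with Agilent's processed signals it was -0.030. Without loess it was -0.49, below 0 on all 4 arrays, and passed (adjusted p = 0.0470, limma).

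**Figure D3:**
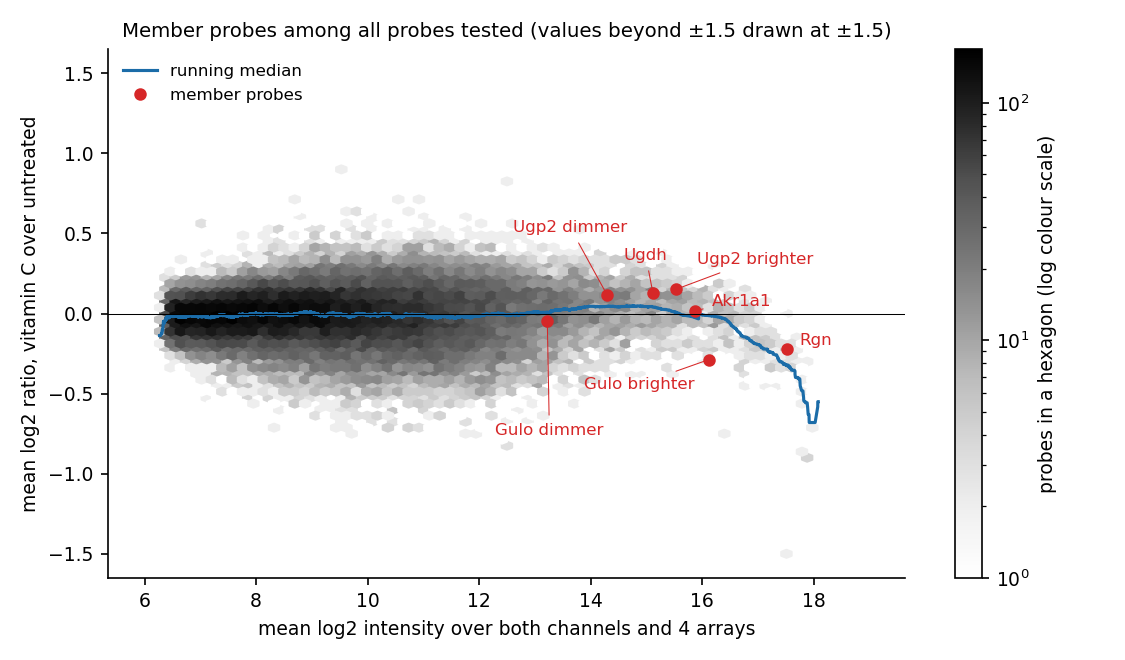
The mean log2 ratio over 4 arrays (vertical axis) is drawn against the mean log2 intensity (horizontal axis) for all 39328 probes tested as hexagons shaded by the number of probes on a log scale, with the running median in blue and the member probes in red. Rgn lies above the running median, which is at -0.32 there, while the brighter Gulo probe lies at -0.29 where the curve is at -0.013.

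Akr1a1 encodes aldehyde reductase, the aldo-keto reductase that turns glucuronate into gulonate; mice that lack it make little ascorbate. Its ratios were 0.34, 0.15, -0.11 and -0.31 on replicates 1 to 4. Replicates 1 and 2 were higher in the treated liver and replicates 3 and 4 lower, so the pairs did not share a direction. The mean was 0.019 ± 0.29 (SD, n = 4), with an interval of -0.26 to 0.29 and an adjusted p of 0.924 (limma). Untreated livers kept within 0.12 log2 units of each other for Akr1a1, from 15.79 to 15.91, whereas treated livers ranged from 15.60 to 16.13. The spread between pairs thus lay mostly on the side of the treated livers. All of these were in Cy3, so livers and dye cannot be told apart in it. Differences of up to 1.2-fold either way lie within the interval.

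Ugdh encodes UDP-glucose dehydrogenase, which makes the UDP-glucuronate that also feeds glucuronidation and the synthesis of glycosaminoglycans. It had 0.27, -0.086, 0.017 and 0.31 on replicates 1 to 4. Replicates 1 and 4 were high and the other two near 0, with a mean of 0.13 ± 0.19 (SD, n = 4) and an adjusted p of 0.333 (limma).

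Ugp2 encodes UDP-glucose pyrophosphorylase, which supplies UDP-glucose to this route and to glycogen synthesis. Its brighter probe had 0.30, 0.10, 0.20 and -0.0022 on replicates 1 to 4, and its dimmer probe 0.18, -0.043, 0.30 and 0.036. Each probe was above 0 on 3 arrays and near 0 on the remaining one, which was replicate 4 for the brighter and replicate 2 for the dimmer probe. The means were 0.15 ± 0.13 and 0.12 ± 0.15 (SD, n = 4; adjusted p = 0.192 and 0.303, limma), and the gap between the probes was at most 0.15 on any array. The probes of Ugp2 thus lay closer together than those of Gulo. Without loess the means of Ugp2 (-0.030 and -0.012), Ugdh (-0.036) and Akr1a1 (-0.18) lay below 0, so the small positive means of the first steps are not independent of the processing. Ugp2 and Ugdh were below 0 under no other alternative. With Agilent's processed signals the probes of Ugp2 were at 0.16 and 0.16 and Ugdh at 0.13.

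Taking the brighter probe of each gene, the steps of the route did not move as a block within a liver pair. Gulo was the lowest of the 5 genes on replicates 1 and 3, and Rgn on replicates 2 and 4. These places, and the distances below, are not corrected for intensity. The running median was -0.32 at Rgn and -0.013 at the brighter Gulo probe. With it taken off, the mean of Rgn was 0.100 and that of the brighter Gulo probe -0.27, so the places of Rgn rest on its intensity range. Akr1a1 was the highest on replicates 1 and 2, Ugp2 on replicate 3 and Ugdh on replicate 4. One of the last 2 steps thus held the lowest place on every array, but on replicate 3 this rests on the brighter Gulo probe: with the dimmer one (-0.097), Akr1a1 (-0.11) was the lowest there. The distance from the lowest to the highest gene was 0.42, 0.63, 0.52 and 0.84 on replicates 1 to 4. Of the 5 genes, 1, 3, 2 and 4 were below 0 on these arrays, and their medians were 0.27, -0.086, 0.017 and -0.31. The median was lowest on replicate 4 and highest on replicate 1. This order is a description and was not tested.

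**Figure D4:**
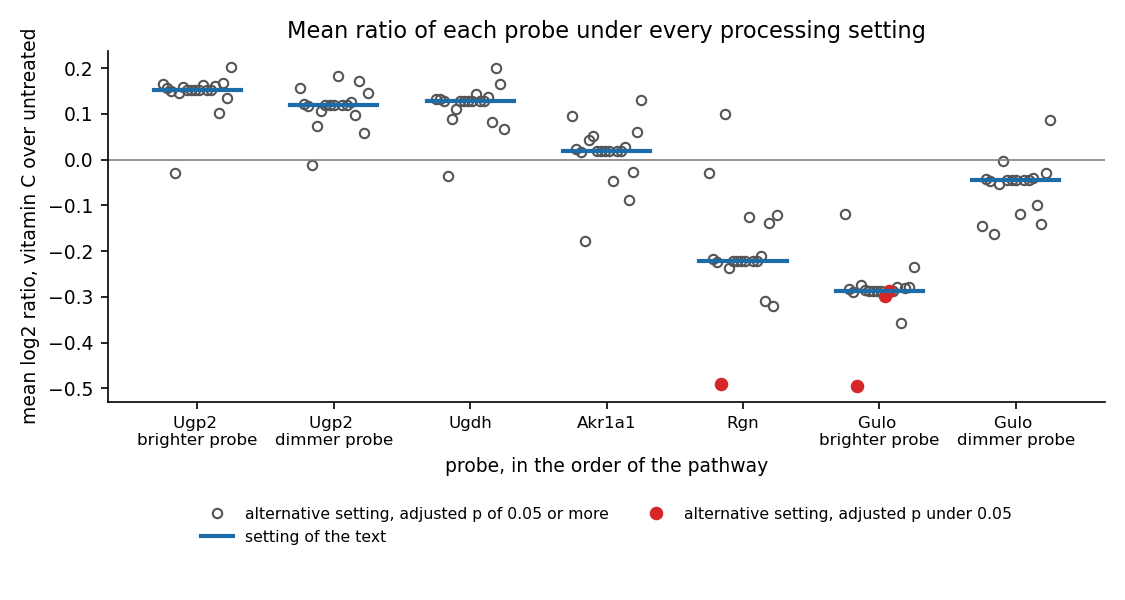
The mean log2 ratio of each probe (vertical axis) is drawn under the setting of the text (blue line) and under each alternative, with filled red points where the adjusted p was under 0.05. The brighter Gulo probe is below 0 under all 18 alternatives, from -0.49 to -0.12, and passes under 3; Rgn passes under 1 and lies above 0 under 1.

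The genes around the route were taken from 4 lists. None of their probes passed over all probes tested. At an unadjusted p under 0.05, 11.7% of all probes were higher and 15.5% lower, and the median of all probes was -0.0091. The list medians given here depend on loess: without it those of UDP-glucose supply, UDP-glucuronate use, aldo-keto reductases and gulonate breakdown were -0.064, -0.087, -0.15 and -0.062, all below 0. Of 11 probes listed for the branch that breaks down gulonate and glucuronate towards the pentose phosphate pathway, 4 were higher and 0 lower at that level. Their median was 0.038 over the 11 probes. Both probes of the gene Dcxr are among these 4, with Cryl1 and Xylb. The running median at these 4 probes was slightly above 0, from 0.0072 to 0.044. With it taken off, their means were 0.20 to 0.24. Of the 100 probes nearest in intensity to the dimmer Gulo and Ugp2 probes, 23 and 17 were higher at that level. Dcxr, the xylulose reductase of this branch, had 0.30, 0.31, 0.28 and 0.12 on its dimmer probe, all above 0, with a mean of 0.25 ± 0.091 (SD, n = 4; adjusted p = 0.139, limma). The brighter Dcxr probe had 0.26 ± 0.11, so the probes of Dcxr had nearly the same mean. Cryl1, a gulonate dehydrogenase that draws on the same gulonate as Rgn, was at 0.21 ± 0.13 and above 0 on all 4 arrays (adjusted p = 0.145, limma). Xylb, the xylulose kinase, was at 0.28 ± 0.28 (adjusted p = 0.174, limma).

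Of 15 probes for aldo-keto reductases, Akr1a1 among them, 1 was higher and 2 lower at an unadjusted p under 0.05, with a median of 0.019. Akr1c6, a hydroxysteroid dehydrogenase of liver, had the lowest mean of the list, with -0.77, -0.52, -0.78 and -1.11 and a mean of -0.79 ± 0.24 (SD, n = 4; adjusted p = 0.139, limma). Its mean log2 intensity was 17.9, where the running median was -0.63, so it was 0.16 below the probes of its intensity. Akr1b7, an aldose reductase-like enzyme, was at -0.36 ± 0.15 and below 0 on all 4 arrays (adjusted p = 0.139, limma). Akr1b10 was at 0.34 ± 0.35. Akr1b3, the aldose reductase that also acts on glucuronate, had -0.054 and -0.00035 on its probes.

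Of 24 probes for UDP-glucose supply and glycogen, 3 were higher and 1 lower at an unadjusted p under 0.05, with a median of 0.055. Pgm2, a phosphoglucomutase gene, had 0.27, 0.14, 0.42 and 0.46, a mean of 0.32 ± 0.15 (SD, n = 4; adjusted p = 0.139, limma). Its probe was dim, with a mean log2 intensity of 8.5. The much brighter probe of Pgm1, another phosphoglucomutase gene, was at -0.023 ± 0.19, with a mean log2 intensity of 16.3. Galt, which links galactose to UDP-glucose, was at 0.25 ± 0.22 (adjusted p = 0.159, limma). The dimmer probe of Pgm3, of the hexosamine pathway, was at -0.48 ± 0.43 and its brighter probe at -0.17 ± 0.24. The liver glycogen synthase gene Gys2, which competes for the product of Ugp2, was at 0.14 ± 0.30.

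Of 30 probes listed around the use of UDP-glucuronate, 5 were higher and 2 lower at an unadjusted p under 0.05, with a median of 0.0040. Not every listed gene encodes an enzyme that uses UDP-glucuronate, so the counts describe the list and not such enzymes alone. B3gat3 and Ext1 encode glycosyltransferases of heparan sulphate synthesis. The brighter B3gat3 probe and Ext1 were at 0.20 ± 0.12 and 0.18 ± 0.13 and above 0 on all 4 arrays (adjusted p = 0.144 and 0.155, limma). The dimmer B3gat3 probe was at 0.13 ± 0.16 and above 0 on 3 arrays. The dimmer probe of Ugt3a2, a glycosyltransferase gene, was at 0.27 ± 0.23 and its brighter probe at -0.13 ± 0.18. The glucuronosyltransferase gene Ugt1a1 was at 0.026 ± 0.30. The 2 lower probes were those of Ugt2b1, at -0.42 ± 0.45, and Ugt2b36, at -0.24 ± 0.19 (adjusted p = 0.177 and 0.157, limma). Ugt2b36 was below 0 on all 4 arrays, at an intensity where the running median was -0.17. The other Ugt2 probes listed also had means below 0, from -0.24 for Ugt2b34 to -0.015 for Ugt2b5.

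Markers of hepatocytes, the cells that make ascorbate, had mostly negative ratios. Of 10 probes for 7 measured hepatocyte markers, 8 had a mean below 0, 5 were lower and 0 higher at an unadjusted p under 0.05, and the median was -0.24. Over all probes tested 15.5% were lower at that level, and of the 100 probes nearest in intensity to Rgn, 68 were. Summed levels of these markers ran from 688860 to 835198 in treated and from 960120 to 984835 in untreated livers. The sums add levels that are not logged, so the brightest markers weigh most, and the running median was not taken off them. Of all probes taken singly, 7.08% had groups without overlap. Alb, the albumin gene, was at -0.70 ± 0.25 (SD, n = 4; adjusted p = 0.139, limma), at an intensity where the running median was -0.68. The running median was also below 0 at Fabp1 (-0.35), Tat (-0.22) and Apoa1 (-0.21), which were among the lower probes. With the running median taken off, the list's median was -0.10 and 7 of its 10 probes were below 0. Array medians of the list were -0.20, -0.0015, -0.31 and -0.28 on replicates 1 to 4, whereas the brighter Gulo probe was at -0.31 on replicate 2. The part of these markers in the values of Gulo and Rgn was not tested.

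Markers of the zone around the central vein had a median of -0.14 (-0.082 with the running median taken off), with 10 of 12 probes below 0, and array medians of 0.083, -0.054, -0.066 and -0.42. Those of the zone around the portal tract had a median of -0.045. Summed levels of the pericentral markers overlapped between groups, with 274395 to 396477 in treated and 338438 to 397481 in untreated livers. Markers of kidney tubule and exocrine pancreas, which should be absent from liver, summed to at most 2141 and 2531 in any liver. No listed marker that had a probe failed the filter on dim signals, so passing that filter does not show that a gene was expressed. The lists for the remaining cell types had medians of 0.11 for Kupffer cells, 0.11 for sinusoidal endothelial cells, -0.062 for stellate cells, -0.061 for cholangiocytes, -0.086 for T and NK cells and -0.022 for red blood cells. No probe of any of these lists passed (limma), and the summed levels of each overlapped between groups.

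Genes with ratios most like those of the members were found by the smallest distance over the 4 arrays, among 16870 genes well above background in both channels. Nearest to the brighter Gulo probe were Mapk1ip1l, Tnks, Slfn5 and Nup50, at distances of 0.060 to 0.10 log2 units. Nearest to Rgn were Pon1, Col15a1, Cdh13 and Fam107b, at 0.17 to 0.24. Pon1, the paraoxonase gene of liver, had -0.10, -0.40, 0.033 and -0.56, low on replicates 2 and 4 as Rgn was. With 4 arrays and so many genes, near patterns arise readily, and they are given as a description.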

How the data were processed

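Total RNA of 4 treated and 4 untreated livers was measured. The deposited scanner files hold the intensity of each spot, as median signal and local background; per the file headers, version 10.5.1.1 of Feature Extraction made them. The same deposited files hold Agilent's processed signals and its log10 ratio (red over green) with an error. A table of log2 values was deposited by the authors too; the submitters' processing notes name limma, and further steps were not given in the sources used here. It correlated with the ratios below at -0.98 to -0.95, so its sign was turned.

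Here, background was corrected with normexp (offset 50) and each array was normalized by loess with limma 3.58.1 in R 4.3.3. Outlier spots were left out and repeat spots averaged. Ratios are log2 of Cy3 over Cy5. Of 41174 probes, the 39328 that rose well above background on 3 of the 4 arrays, in either channel, were tested against 0 with lmFit and eBayes, Benjamini-Hochberg adjusted, with a threshold of 0.05. Levels came from the same values after Aquantile. The path was also run on simulated data whose noise was independent between arrays, unlike the correlated ratios found here. That run does not show how the path behaves on such ratios. Livers of 1 array are paired through their ratio. All 4 arrays lay on 1 slide, so no slide term was used.

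Accessions were matched to a RefSeq gene table of GRCm38.p6, which named 25097 probes (61.0%); this is not the build of the array design (mm9), so no coordinates are given. Lists were matched by symbol; 17 of 18, 25 of 31, 12 of 14 and 8 of 10 genes of the pathway lists were measured. Named were all member probes, the 3 genes of smallest p in each pathway list, and the 4 genes nearest to Gulo and to Rgn. Chosen after their values were seen were Akr1b3, Gys2, Pgm1, Ugt1a1, the Ugt2 genes, Alb and second probes. The members and lists were chosen with earlier results of these data known. The number of arrays limits the precision; the labels call the livers biological replicates.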

Additional observations from a re-analysis of the deposited data

Results flagged for a closer look

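The array medians of the periportal hepatocyte markers had 1 array far from the others: 0.476 on replicate 4, against -0.23, -0.15 and -0.22 on replicates 1 to 3. It was the only one of 48 sets of 4 values examined, and chance would mark about 1 in 20. On that array the pericentral markers had a median of -0.42, and Gulo (-0.45 and -0.44), Rgn (-0.53) and Akr1a1 (-0.31) had their lowest ratios, whereas Ugdh (0.31) had its highest. The brighter Ugp2 probe also had its lowest ratio there (-0.0022), and the dimmer one was at 0.036. How these values relate was not tested.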

How the results depend on the processing

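Over 18 alternatives, 111 of 124 values of member probes kept their direction and their side of the threshold, 4 came to pass and 9 changed sign. Without loess, Gulo (-0.49) and Rgn (-0.49) passed, and Ugp2 (-0.030 and -0.012), Ugdh (-0.036) and Akr1a1 (-0.18) changed sign; 11893 probes passed in all, and of the lists 5 for UDP-glucose supply, 10 for UDP-glucuronate use, 3 for aldo-keto reductases and 2 for gulonate breakdown, with medians of -0.064, -0.087, -0.15 and -0.062, all of opposite sign to those of the text. With array weights, Gulo (-0.30) passed and Akr1a1 (-0.047) changed sign, and 13473 probes passed, 6, 8, 4 and 4 in these lists; the median of aldo-keto reductases was -0.047. With 1 probe for each gene, that of UDP-glucuronate use was -0.015. In a paired fit of separate channels, with the array as a replicate block, Gulo (-0.29) passed, with 1301 probes in all and 1 each in the last 2 lists; without the block 0 passed. With the running median taken off, Rgn was at 0.100 and the median of gulonate breakdown was 0.14; with Agilent's processed signals that median was 0.15 and that of UDP-glucuronate use 0.047. With 1 replicate left out, the ranges were -0.088 to 0.13 for Akr1a1 (-0.088 without replicate 1, -0.026 without replicate 2), -0.14 to 0.086 for the dimmer Gulo probe (0.086 without replicate 4), and, for list medians, -0.022 to 0.090 for UDP-glucose supply (-0.022 without replicate 3), -0.045 to 0.028 for UDP-glucuronate use (-0.045 without replicate 1), -0.025 to 0.060 for aldo-keto reductases (-0.025 without replicate 2) and 0.032 to 0.081 for gulonate breakdown. For counts of probes that passed they were 0 to 9688 over all probes, and 0 to 7, 0 to 6, 0 to 3 and 0 to 2 in the lists; each highest count was that without replicate 2, the others being 0. The brighter Gulo probe ran from -0.36 to -0.23 and Rgn from -0.32 to -0.12 without passing. The cause was not tested. Without dye-swapped arrays, no setting separates a dye effect of a probe from the treatment. The member probes were well above background on every array.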
